A study of Mus musculus with 6 samples.

Results

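The genes described here are 10 members of the Wnt pathway that act at the cell surface or report on it. They are the ligands *Wnt5a*, *Wnt5b* and *Wnt2*, the secreted antagonists *Sfrp1*, *Sfrp2*, *Frzb*, *Dkk2*, *Dkk3* and *Wif1*, and the feedback target *Axin2*. They were chosen by symbol from the 28987 genes of the deposited expression table, and all 10 were found, each once. The cells were sorted by their GFP from cardiac ventricles 4 weeks after TAC surgery (transverse aortic constriction), which narrows the aorta of the mouse and places the left ventricle under pressure overload. Per the sample labels, mice were 8 to 10 weeks old at surgery and received tamoxifen by injection (100 mg/kg) and in chow (40 mg/kg), whereas the methods of the study state other doses and a single age. All mice, controls included, carried MerCreMer, a tamoxifen-dependent Cre recombinase, knocked into the periostin (*Postn*) locus, together with the R26eGFP reporter, so the sort collected cells that had expressed *Postn*. Mice of the Hsp47-deleted group (3 libraries) were also Hsp47 flox/flox, whereas the genotype of the controls (3 libraries) lists no floxed *Hsp47* allele. Hsp47 is a collagen chaperone of the endoplasmic reticulum, and the comparison asks how its loss from activated fibroblasts altered their transcripts.

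Values are log2(value + 1) as deposited, in which the linear unit is not named, so levels of different genes are not ranked against each other and the sequencing depth is unknown. The linear values summed to between 690499 and 855404 per library. Control replicates 3 and 4 came from 1 sequencing run, called the first run, while a second run held control replicate 2 with the 3 libraries labelled Hsp47-deleted. Run and group can therefore be told apart only through control replicate 2, and the difference from that library is given beside the pooled difference of each gene, without a test. The title of control replicate 2 lacks the tag that marks the other controls, and its group rests on its genotype label. Values of single libraries are listed throughout in 1 order, which is control replicates 3, 4 and 2, followed by replicates 1, 2 and 3 of the Hsp47-deleted label. The transcript of *Hsp47*, listed as *Serpinh1*, read 6.28, 6.10 and 7.60 in the controls, and the libraries labelled Hsp47-deleted read 6.87, 6.67 and 6.66. Against all 3 controls the targeted transcript was not lower (log2 difference 0.072, SE 0.43), whereas the difference from control replicate 2 was -0.87. For this reason the groups are named by their labels, and each direction below is that of the labels. The study reports efficient loss of Hsp47 protein by Western blot in sorted EGFP-positive cells, and transcript values do not measure protein. Of 10 fibroblast markers, all were detected, and their summed linear level was 8075 to 11013 in the controls and 12617 to 14380 in the libraries labelled Hsp47-deleted. Genes with a mean linear value of at least 1 were tested (15109 genes), and their median log2 difference was 0.35, with 74.5% of them at a positive difference. Centring each library on its median took this value to -0.060. In a bulk sample, fewer cells of a type and less RNA per cell cannot be told apart.

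Wnt proteins are secreted lipid-modified ligands that bind Frizzled receptors, with LRP5 or LRP6 as partners in the canonical branch. There they stabilise beta-catenin, which enters the nucleus and drives targets such as *Axin2*. Wnt5a is the classical ligand of the non-canonical branch, which acts on cell polarity and movement. Secreted Frizzled-related proteins (Sfrp1, Sfrp2 and Frzb, also known as Sfrp3) and Wif1 bind Wnt proteins outside the cell, whereas Dickkopf proteins of the Dkk1 and Dkk2 type block the LRP co-receptor. In the heart, Wnt signalling is low in the healthy adult and becomes active after injury, and fibroblasts are among the cells that make its antagonists.

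The member with the largest difference was *Sfrp2* (ENSMUSG00000027996), a gene with 3 annotated transcripts of 3 exons each on the plus strand of chromosome 3, from 83766321 to 83774316 (GENCODE M21, GRCm38). The 250 bases before its RefSeq start are printed because this gene carries the clearest separation of the groups, and because the window is rich in CG pairs. It covers chr3:83766071-83766320 on the plus strand of GRCm38.p6, is written 5′ to 3′, and would show any motif match in capitals.
Sfrp2 promoter: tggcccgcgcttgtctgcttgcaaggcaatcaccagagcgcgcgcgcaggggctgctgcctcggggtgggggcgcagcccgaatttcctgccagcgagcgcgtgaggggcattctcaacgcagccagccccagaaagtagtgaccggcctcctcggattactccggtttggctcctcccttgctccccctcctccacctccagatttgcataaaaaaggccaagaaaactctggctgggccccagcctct
Its GC content was 63.6% with 16 CG pairs, against medians of 52.4% and 6 over the 32851 RefSeq mouse promoter windows of this length. Short motifs were searched on both strands of the window, and none of their letter strings stood in it, which says nothing of binding there or elsewhere. The searched strings and the share of all windows that held each were TATAAA of the TATA box with 12.4%, GGGCGG of the GC box with 32.7%, and CCAAT of the box named after it with 33.8%. CTTTGNT, the TCF/LEF motif of the beta-catenin branch, stood in 16% of windows, and TGANTCA, the AP-1 motif, in 6.75%. GGAATG of TEAD factors stood in 12.6%, TGTGGT of RUNX factors in 14%, and CANCTG, the E-box, in 44.8%. Among the members, 7 had an entry with 9 windows in all, and the GC box stood in 7 of the 9. The TCF/LEF motif stood in 1 of them, a window of *Wnt5b*.

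The secreted Frizzled-related proteins divided into genes with higher values in the libraries labelled Hsp47-deleted (*Sfrp2* and *Frzb*) and *Sfrp1*, whose groups overlapped. In the controls *Sfrp2* read 5.39, 5.78 and 5.64 on the log2 scale. Under the Hsp47-deleted label it read 7.30, 8.08 and 7.41. No control came within 1.52 of the lowest library labelled Hsp47-deleted, and the control of the second run lay between those of the first. In the linear unit the controls spanned 41.0 to 54.0 and the libraries labelled Hsp47-deleted 156.4 to 269.2. *Sfrp2* averaged 5.60 ± 0.20 (SD, n = 3) in the controls and 7.59 ± 0.42 (SD, n = 3) in the other group, with a log2 difference of 1.99 (SE 0.32, 95% interval 1.25 to 2.73) or 3.97-fold on the scale of value + 1. By limma its unadjusted p was 0.000272 and its Benjamini-Hochberg adjusted p over all genes tested was 0.0720, so the difference did not pass after adjustment. Against control replicate 2 alone the log2 difference was 1.96. Without control replicate 2, when run and label coincide, it was 2.01 (limma, Benjamini-Hochberg adjusted p = 0.00981). Of all tested genes, 317 (2.10%) had a larger difference than *Sfrp2*. An antisense gene, *Gm26771*, overlaps *Sfrp2*, and 290 of the 2122 different 31-base words in *Sfrp2* transcripts (13.7%) also occur in it. *Gm26771* has no row of its own in the table, and the library kit does not mark strand, so reads of the overlap may come from either gene.

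*Frzb* (ENSMUSG00000027004, chromosome 2 from 80411970 to 80447625, minus strand) followed the same order of groups. The controls read 5.996, 5.75 and 6.04 on the log2 scale, and the other group 7.06, 7.82 and 7.46. A gap of 1.02 separated the highest control from the lowest library labelled Hsp47-deleted. *Frzb* averaged 5.93 ± 0.16 (SD, n = 3) in the controls and 7.45 ± 0.38 (SD, n = 3) in the other group, so that the log2 difference was 1.52 (SE 0.31, 95% interval 0.81 to 2.22), or 2.86-fold. The unadjusted limma p was 0.00118 and the Benjamini-Hochberg adjusted limma p was 0.142. Against control replicate 2 the difference was 1.40, and without that library it was 1.57 (limma, Benjamini-Hochberg adjusted p = 0.0169). Larger differences were found at 757 tested genes (5.01%). No 31-base word of *Frzb* occurs in another annotated gene.

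*Sfrp1* (ENSMUSG00000031548, chromosome 8 from 23411502 to 23449632, plus strand) encodes another member of the same protein family. It read 7.65, 7.40 and 7.13 in the controls, against 7.20, 7.51 and 6.93 under the Hsp47-deleted label. These ranges overlapped, and the log2 difference was -0.18 (SE 0.30, 95% interval -0.88 to 0.52, limma, Benjamini-Hochberg adjusted p = 0.791). Against control replicate 2 it was 0.087, so the sign was not stable. The upper end of its interval lies below the lower end of those of *Sfrp2* and *Frzb*.

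**Figure D1:**
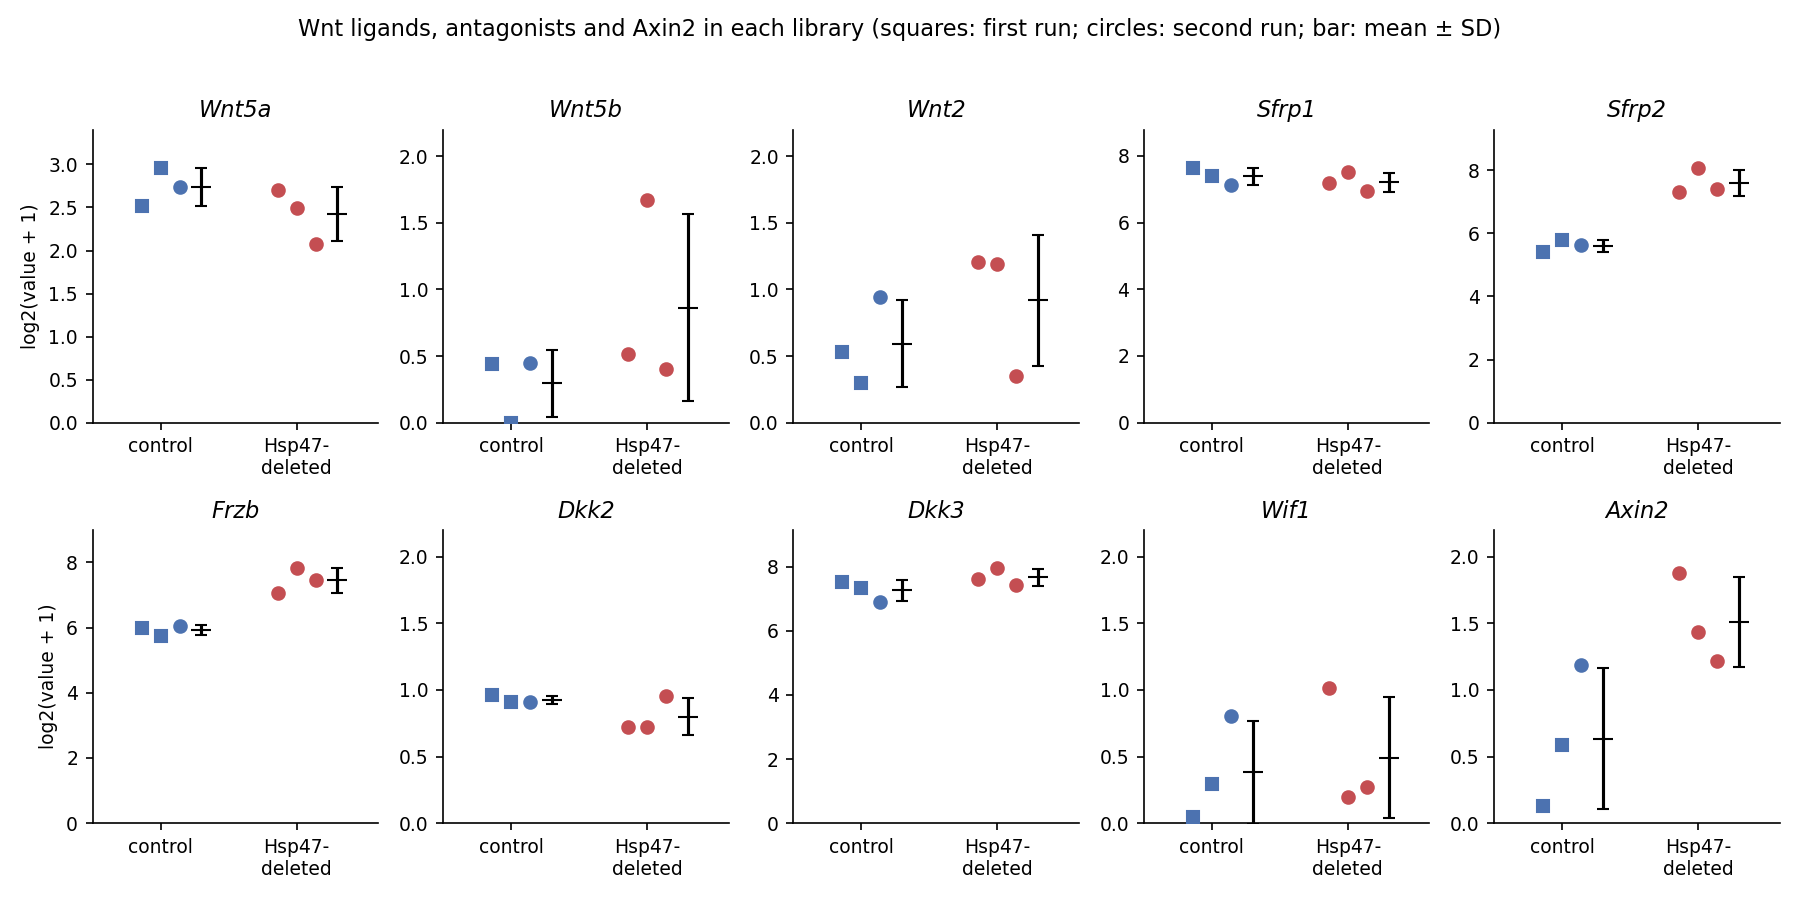
Log2(value + 1) of each of the 10 genes (y axis, own scale per gene) in the 3 controls (blue) and the 3 libraries labelled Hsp47-deleted (red), with squares for the first sequencing run, circles for the second, and bars for the mean ± SD. *Sfrp2* and *Frzb* are separated by gaps of 1.52 and 1.02, *Axin2* by 0.035, and the other genes overlap.

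A difference between genes taken inside each library does not depend on how the library was scaled, apart from the added 1. The gene pairs were picked after their values were seen, and no test is given. The pooled difference of *Sfrp1* lay 0.53 below the median of all tested genes, which adds to each difference taken relative to it. Those of *Sfrp2* and *Frzb* lay 1.63 and 1.16 above that median. *Sfrp2* minus *Sfrp1* gave -2.25, -1.62 and -1.49 for the controls and 0.099, 0.57 and 0.47 for the other group. On average this was -1.79 ± 0.41 (SD, n = 3) against 0.38 ± 0.25 (SD, n = 3), which is 2.17 apart. *Frzb* minus *Sfrp1* was -1.65, -1.66 and -1.08 in the controls and -0.14, 0.31 and 0.52 in the libraries labelled Hsp47-deleted, so both pairs were without overlap. *Sfrp2* minus *Frzb*, in contrast, lay between -0.60 and 0.036 for the controls and between -0.053 and 0.26 under the Hsp47-deleted label, an overlap. With control replicate 2 as the only control, the differences relative to *Sfrp1* were 1.87 for *Sfrp2* and 1.31 for *Frzb*.

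**Figure D2:**
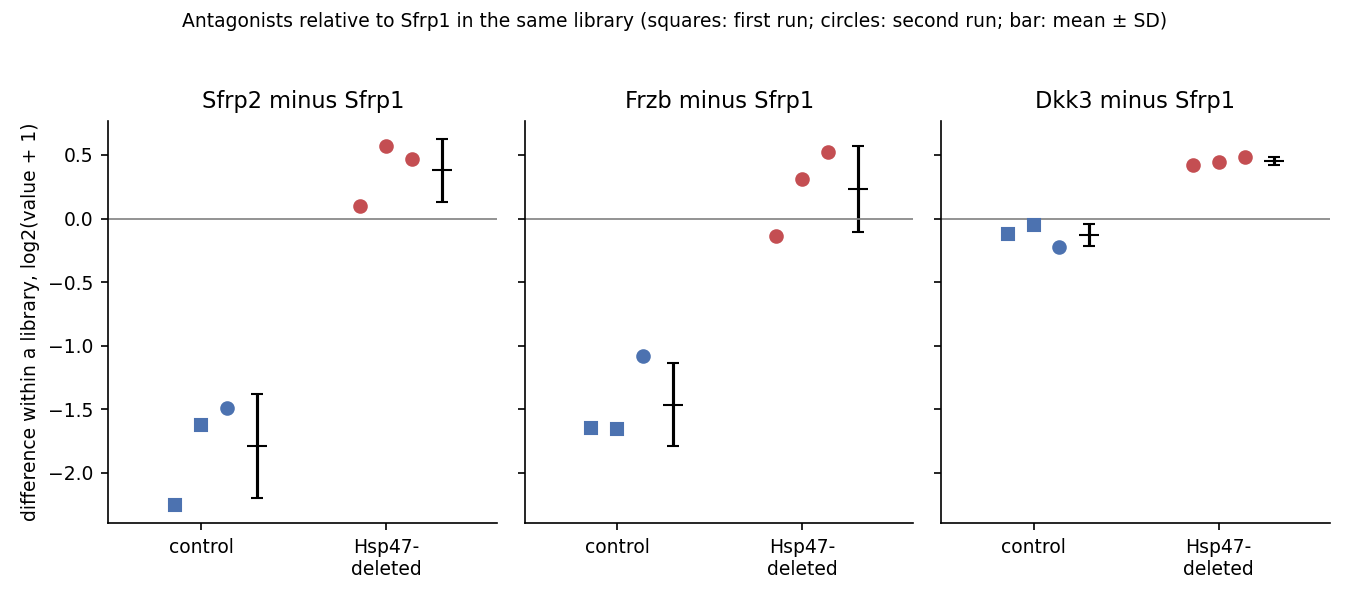
Difference between an antagonist and *Sfrp1* in the same library (y axis, log2(value + 1)) in the controls (blue) and the libraries labelled Hsp47-deleted (red), with squares for the first run, circles for the second, and bars for the mean ± SD. The control means are -1.79, -1.46 and -0.13 for *Sfrp2*, *Frzb* and *Dkk3*, and the means of the other group are 0.38, 0.23 and 0.45.

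Of the Dickkopf genes, *Dkk3* (ENSMUSG00000030772, chromosome 7 from 112116017 to 112159057, minus strand) passed the filter on low values and *Dkk2* did not. Dkk3 is the divergent member of its family and, unlike Dkk1 and Dkk2, is not regarded as a ligand of LRP5 or LRP6. *Dkk3* read 7.52, 7.35 and 6.91 in the controls and 7.62, 7.95 and 7.42 under the Hsp47-deleted label. The libraries labelled Hsp47-deleted all lay above control replicate 2, but the groups overlapped because of control replicate 3. The log2 difference was 0.40 (SE 0.31, 95% interval -0.31 to 1.12, limma, Benjamini-Hochberg adjusted p = 0.531). Against control replicate 2 it was 0.76, where the median of all tested genes was 0.29, and with the 6 libraries centred on their medians it was -0.012. Relative to *Sfrp1* in the same library, *Dkk3* was at -0.12, -0.053 and -0.22 in the controls and at 0.42, 0.44 and 0.48 in the other group, a difference of 0.58 without overlap (0.67 against control replicate 2). The pooled difference of *Sfrp1* lay 0.53 below the median of all tested genes and that of *Dkk3* 0.049 above it. Relative to that median, most of the 0.58 thus lay in *Sfrp1*, the reference. As deposited, the pooled differences were 0.40 for *Dkk3* and -0.18 for *Sfrp1*, so the larger part lay in *Dkk3*. Against control replicate 2 they were 0.76 and 0.087. The split between the 2 genes therefore depends on the scaling and the controls used. How many other genes separate the groups relative to *Sfrp1* was not counted.

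*Dkk2* (ENSMUSG00000028031, chromosome 3 from 132085292 to 132180304, plus strand) and *Wif1* (ENSMUSG00000020218, chromosome 10 from 121033960 to 121100650, plus strand), a secreted factor with its own Wnt-binding domain, were near the lower end of the table, with mean linear values of 0.82 and 0.40. *Dkk2* read 0.96, 0.91 and 0.91 in the controls, and 0.72, 0.72 and 0.96 under the Hsp47-deleted label. *Wif1* read 0.046, 0.29 and 0.80 in the controls, and the other group gave 1.01, 0.19 and 0.27. Neither gene was tested, and for both the groups overlapped.

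The ligands showed no separation of the groups. *Wnt5a* (ENSMUSG00000021994, chromosome 14 from 28504750 to 28527448, plus strand) was the only ligand of the 3 to pass the filter, with 2.52, 2.96 and 2.73 in the controls and 2.70, 2.49 and 2.08 under the Hsp47-deleted label. On average it was at 2.74 ± 0.22 (SD, n = 3) and 2.42 ± 0.32 (SD, n = 3). The log2 difference was -0.31 (SE 0.32, 95% interval -1.07 to 0.44, limma, Benjamini-Hochberg adjusted p = 0.651), and it was -0.31 against control replicate 2 as well. Of the 7819 words of *Wnt5a* transcripts, 327 (4.18%) also occur in other genes, 299 of them in the overlapping antisense gene *Gm2670*.

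*Wnt5b* (ENSMUSG00000030170, chromosome 6 from 119432531 to 119544347, minus strand), the close paralog of *Wnt5a*, had a mean linear value of 0.61. It was at 0.44, 0.00 and 0.44 in the controls and at 0.51, 1.67 and 0.40 in the other group, where Hsp47-deleted replicate 2 alone was high. *Wnt2* (ENSMUSG00000010797, chromosome 6 from 17988940 to 18030585, minus strand), which acts through beta-catenin in heart and lung development, read 0.53, 0.30 and 0.94 in the controls. The libraries labelled Hsp47-deleted read 1.21, 1.19 and 0.35, again overlapping, with a mean linear value of 0.75. Both were left untested.

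*Axin2* (ENSMUSG00000000142, chromosome 11 from 108920349 to 108950783, plus strand), a scaffold of the beta-catenin destruction complex and a direct target of the pathway, was low in every library. On the log2 scale the controls read 0.13, 0.58 and 1.18, and the other group 1.88, 1.43 and 1.22. The groups did not overlap, but the gap between control replicate 2 and Hsp47-deleted replicate 3 was 0.035. On average *Axin2* was at 0.63 ± 0.53 (SD, n = 3) and 1.51 ± 0.34 (SD, n = 3), and the log2 difference was 0.88 (SE 0.40, 95% interval -0.046 to 1.80, limma, Benjamini-Hochberg adjusted p = 0.340). Within the controls, replicate 2 was 0.83 above the mean of the first-run libraries, close to the difference between the groups, and against it alone the difference was 0.33. In the linear unit *Axin2* was at 0.095, 0.50 and 1.27 in the controls and at 2.67, 1.70 and 1.33 in the other group, so that it passed the filter through the group in which it was higher. With no filter on low values its adjusted limma p was 0.532 (Benjamini-Hochberg). Of its words, 149 of 5496 (2.71%) are shared with the antisense gene *Gm11670*.

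**Figure D3:**
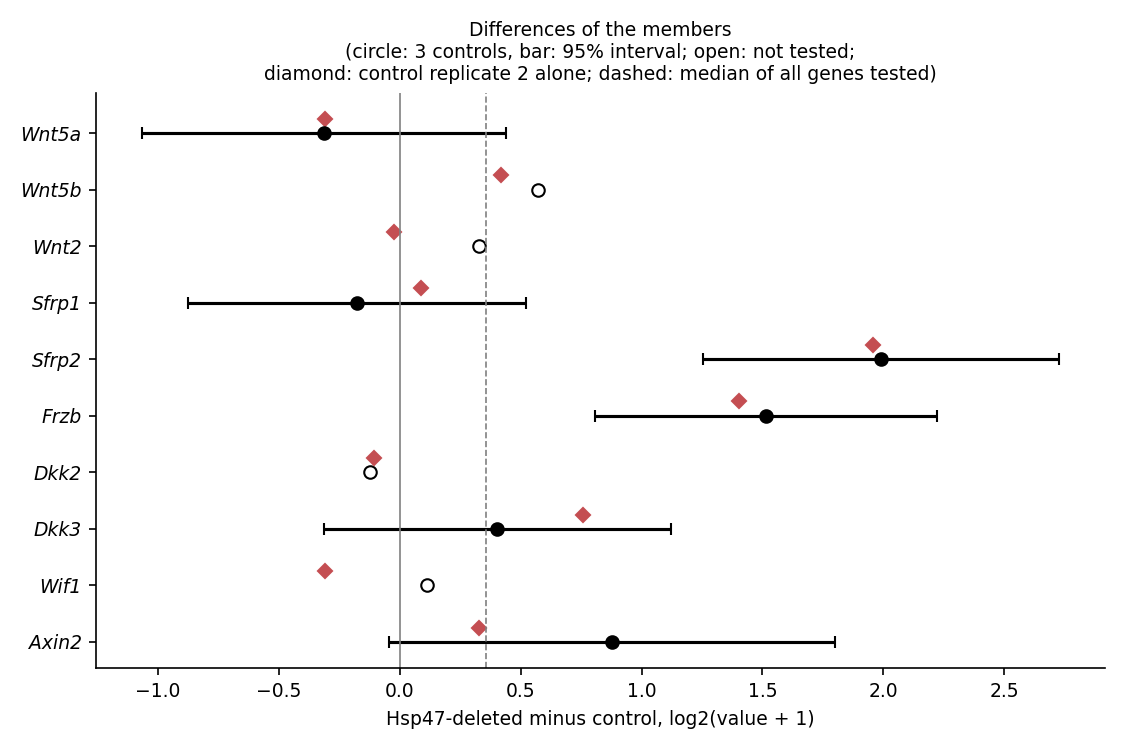
Log2 difference of the libraries labelled Hsp47-deleted from the 3 controls (circles, with 95% intervals for tested genes; open circles, untested) and from control replicate 2 alone (diamonds), with the median of all tested genes dashed at 0.35. The intervals of *Sfrp2* (1.25 to 2.73) and *Frzb* (0.81 to 2.22) lie above 0, and those of the other 4 tested genes include it.

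Counted together, 6 of the 10 genes passed the filter. None of the 6 had an adjusted limma p under 0.05 (Benjamini-Hochberg), against 37 (0.245%) of the 15109 genes tested, of which 35 were higher. At an unadjusted limma p under 0.05, 2 members (*Sfrp2* and *Frzb*) were higher and 0 lower, where 14.5% of all tested genes were higher. With the libraries centred on their medians or quantile-normalised, *Wnt5a* also had an unadjusted limma p under 0.05, in the lower direction (log2 difference -0.73 in both, limma, Benjamini-Hochberg adjusted p = 0.590 and 0.580). The groups did not overlap, in the higher direction, at 3 of the 6 tested members (*Sfrp2*, *Frzb* and *Axin2*) and at 18.3% of all tested genes. *Axin2*, with a gap of 0.035, passed the filter through the group in which it was higher. Its place among the tested members, here and in the counts that follow, is therefore not independent of its direction. All 3 libraries labelled Hsp47-deleted lay above control replicate 2 at 4 of the 10 members (*Sfrp2*, *Frzb*, *Dkk3* and *Axin2*). These 4 are all among the 6 tested, and the share of all tested genes was 46.7%. The median log2 difference of the 10 members was 0.37, beside 0.35 for all tested genes and 0.072 for the whole table, and against control replicate 2 it was 0.21 beside 0.29 for the tested genes. With 3 libraries against 3, an exact two-sided permutation test of 1 gene cannot go below p = 0.10, the value reached by *Sfrp2*, *Frzb* and *Axin2*.

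The rest of the pathway was described in 9 lists, none of which held a gene with an adjusted limma p under 0.05 (Benjamini-Hochberg). List medians stand beside the 0.35 of all tested genes, and 0.29 where control replicate 2 is the only control. Among the 16 other Wnt ligands, 5 were tested and all 5 had positive differences (74.5% of all tested genes did), with a median of 0.49. *Wnt11*, a non-canonical ligand and the only one of them with an unadjusted limma p under 0.05, averaged 1.92 ± 0.48 (SD, n = 3) over the controls and 2.91 ± 0.33 (SD, n = 3) under the Hsp47-deleted label (log2 difference 1.00, limma, Benjamini-Hochberg adjusted p = 0.306), without overlap, and differed by 0.50 from control replicate 2. *Wnt9a* differed by 1.45, with control replicate 2 at 3.34 and the other controls at 0.82 and 0.76, and against control replicate 2 alone by -0.25. Of the 8 other secreted antagonists, 3 were tested, with a median of -0.17 and 0 members at an unadjusted limma p under 0.05 in either direction. *Sfrp4*, a further Frizzled-related protein, averaged 3.79 ± 0.64 (SD, n = 3) in the controls and 3.30 ± 0.42 (SD, n = 3) in the other group, and differed by -0.49 from all controls and by -1.21 from control replicate 2. *Igfbp4*, a binding protein of insulin-like growth factors that also antagonises Wnt, differed by 0.35 (SE 0.45), and by -0.31 against control replicate 2. Of the Frizzled-related genes that passed the filter, *Sfrp2* and *Frzb* thus had positive pooled differences and *Sfrp1* and *Sfrp4* negative ones, that of *Sfrp1* being positive against control replicate 2.

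Both genes of Wnt secretion were tested, and neither had an unadjusted limma p under 0.05. *Wls*, the carrier that brings Wnt proteins to the cell surface, was at 4.57 ± 0.17 (SD, n = 3) and 5.01 ± 0.28 (SD, n = 3), without overlap (log2 difference 0.44, limma, Benjamini-Hochberg adjusted p = 0.468, and 0.29 against control replicate 2). *Porcn*, the acyltransferase that attaches their lipid, differed by 0.84 from all controls and by 0.012 from control replicate 2. The list of Frizzled and LRP receptors also held *Kremen1* and *Kremen2*, which are neither. Of its 11 tested genes, 10 had positive differences and 3 an unadjusted limma p under 0.05 (74.5% and 14.5% of all tested genes), with a median of 0.64, and of 0.71 against control replicate 2. *Fzd8* read 1.99, 1.90 and 2.69 in the controls and 3.63, 3.88 and 3.10 under the Hsp47-deleted label (log2 difference 1.34, limma, Benjamini-Hochberg adjusted p = 0.265), and differed by 0.84 from control replicate 2. The difference of *Lrp5*, 2.85, was set mainly by the first run: control replicates 3 and 4 were at 0.15 and 0.00, control replicate 2 at 3.26, and the libraries labelled Hsp47-deleted between 3.75 and 4.22. Against control replicate 2 it was 0.72. The 5 alternative Wnt receptors were all tested, 3 with positive and 2 with negative differences. Their median was 0.43, and 0.16 against control replicate 2. An unadjusted limma p under 0.05 was found at 2 of the 5, where 14.5% of all tested genes were higher at that p. They were the adhesion molecule *Mcam* (log2 difference 1.03) and the pseudokinase *Ptk7* (1.11), and against control replicate 2 these were 0.42 and 0.31.

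**Figure D4:**
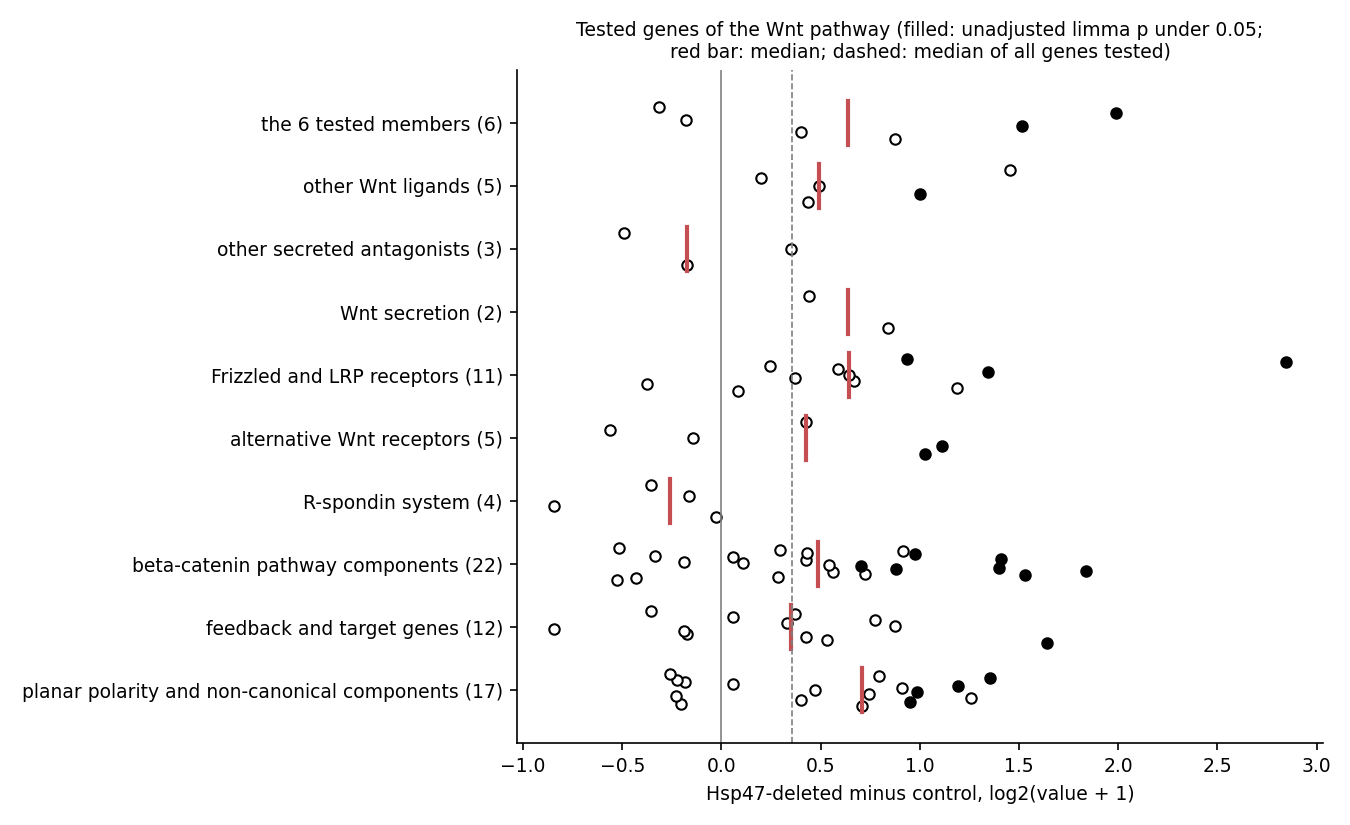
Log2 difference (x axis, Hsp47-deleted minus control) of each tested gene of the 9 Wnt pathway lists and of the 6 tested members, filled where the unadjusted limma p was under 0.05, with list medians as red bars and the median of all tested genes dashed at 0.35. The filled points all lie at positive differences, and all 4 tested genes in the list of the R-spondin system lie below 0.

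In the list of the R-spondin system the 4 tested genes were *Rspo1*, *Lgr4*, *Lgr5* and *Znrf3*. All 4 had negative differences, with a median of -0.26 and 0 members at an unadjusted limma p under 0.05. These genes differ in role, so their signs are not read as a direction of the system. Against control replicate 2 the median was -0.092, and *Lgr5* (-0.84 pooled) and *Znrf3* (-0.35 pooled) were at 0.22 and 0.34. Of 22 tested beta-catenin pathway components, 17 had positive differences and 7 an unadjusted limma p under 0.05 in the higher direction (74.5% and 14.5% of all tested genes), with a median of 0.49. *Ctnnb1*, which encodes beta-catenin, read 3.31, 3.21 and 4.74 in the controls and 5.42, 5.68 and 5.67 under the Hsp47-deleted label (log2 difference 1.84, limma, Benjamini-Hochberg adjusted p = 0.218). Its difference from control replicate 2 was 0.85, and that of the co-activator *Bcl9l*, 1.53 pooled, was 0.66. Of 12 tested feedback and target genes other than *Axin2*, 8 had positive differences and 1, *Apcdd1*, an unadjusted limma p under 0.05, again beside 74.5% and 14.5% of all tested genes. Of the 12, *Lef1*, *Tcf7*, *Lgr5*, *Znrf3* and *Dkk1* are also counted in other lists, among them all 4 with negative differences. *Apcdd1* encodes a membrane inhibitor of Wnt signalling and differed by 1.64 pooled and 0.48 against control replicate 2. *Nkd2*, an antagonist that binds Dishevelled, read 4.93, 4.66 and 4.73 in the controls, and the other group, at 5.86, 5.96 and 4.81, overlapped with them through its replicate 3. Of 17 tested planar polarity and non-canonical genes, 12 had positive differences and 4 an unadjusted limma p under 0.05 (74.5% and 14.5% of all tested genes), with a median of 0.71, and of 0.28 against control replicate 2. The calcineurin-regulated factor *Nfatc2* was at 2.60 ± 0.082 (SD, n = 3) and 3.59 ± 0.35 (SD, n = 3), and its log2 difference of 0.99 (limma, Benjamini-Hochberg adjusted p = 0.283) was 1.03 against control replicate 2. The polarity scaffold *Scrib* differed by 1.36 pooled and by 0.60 against that control.

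Markers of other cells were set beside these values, as summed linear levels. Leukocyte markers, of which 9 of 10 were found, gave 38.4, 82.1 and 91.2 for the controls and 99.5, 129.7 and 103.4 under the Hsp47-deleted label, without overlap. Of the 9, 7 passed the filter on low values, among them *Cd68* (linear values from 19.2 to 63.6) and *Lyz2* (from 1.29 to 56.7). *Ptprc*, which encodes the pan-leukocyte antigen CD45, was listed at 0 in every library. The sum of the fibroblast markers also separated the groups, and without *Postn*, whose log2 value was from 5.86 to 6.12 in controls and from 10.22 to 10.50 in the other group, it was 8018 to 10944 and 11429 to 12929. Most of this sum was *Dcn*, with 5090 to 7401 in the controls and 7755 to 8636 in the other group. In pooled log2 difference 8 of the 10 markers were positive, beside 74.5% of all tested genes, and *Lum* (-0.11) and *Ddr2* (-0.21) were negative. The sums were not scaled to the linear totals of the libraries. Sums of endothelial (105.3 to 639.0 and 285.7 to 601.3), cardiomyocyte (58.9 to 309.0 and 189.8 to 320.2) and mural markers (178.9 to 307.6 and 165.9 to 254.5) overlapped, and in the endothelial and cardiomyocyte lists control replicate 2 was above the other controls. Mesothelial and Schwann cell markers summed to at most 11.1 and 9.52, with *Krt8* and *Upk1b* at or near 0 throughout. The part of the fibroblast and leukocyte sums in the differences of *Sfrp2*, *Frzb* and *Axin2* was not tested.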

How the data were processed

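RNA from sorted cells was amplified (Ovation RNA-Seq System v2) and sequenced as 6 Nextera XT libraries. The authors deposited log2(value + 1) per gene and library, with group means and their own comparison, which were not used. The submitters' processing notes name kallisto and mm10, without a version. Genes with a mean linear value of at least 1 were kept, and the labelled groups were tested in limma 3.58.1 under R 4.3.3 (linear model, eBayes with trend, no covariate), with Benjamini-Hochberg adjustment over the 15109 genes. The fit was tested on simulated data. The labels do not say how many mice each library holds, so p-values measure only the spread between these libraries. All members were named, *Serpinh1* and *Postn*, and in each pathway list the 2 genes with the smallest p. The members and lists were chosen with earlier results of these data known. Positions and 31-base words came from GENCODE M21 transcripts, promoter sequence from RefSeq (GRCm38.p6). Tried as alternatives were sequencing run as a covariate, the second run alone, a replicate block, other filters (none, mean of 5), pseudocounts (0.1, 5), quantile normalization, centring, limma without trend or robust (statmod 1.5.0), and leaving out each library.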

Additional observations from a re-analysis of the deposited data

How the results depend on the processing

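The log2 differences of *Sfrp2* and *Frzb* kept their sign in all 17 alternatives, between 1.57 and 2.23 and between 1.10 and 1.71, with an unadjusted limma p of at most 0.00238 and 0.0105 in the 16 that allow a test. Adjusted limma p (Benjamini-Hochberg) ran from 0.00981 to 0.433 for *Sfrp2* and from 0.0169 to 0.659 for *Frzb*, under 0.05 only without control replicate 2, where label and run coincide. With sequencing run as a covariate they were 1.96 and 1.40 (limma, adjusted p = 0.218 and 0.449). *Axin2* ran from 0.30 to 1.83 and *Wnt5a* from -0.73 to -0.14. Both ends of the *Axin2* range came from the pseudocount (5 and 0.1), and with run as a covariate *Axin2* was at 0.33. Among tested members the sign reversed for *Sfrp1*, at 0.087 with run as a covariate or the second run alone, and *Dkk3*, at -0.095 with quantile normalization and -0.012 with centring on the median, and the median of the members moved to -0.050 with centring. Among untested members, *Wnt2* turned to -0.026 with run as a covariate and -0.088 with centring, and *Wif1* kept its sign in 10 of 16 alternatives (-0.31 with run as a covariate). Quantile normalization covered tested genes only, so it gives no value for the untested members or the median. Of all tested genes, 16 passed adjustment with a pseudocount of 0.1, 17 with quantile normalization and 18 with centring, beside 37, and from 8 (without Hsp47-deleted replicate 3) to 2768 (without control replicate 2) with 1 library left out. At an unadjusted limma p under 0.05, 2188 of 2302 genes were higher as deposited, 714 of 1240 with centring and 690 of 1265 with quantile normalization. With the replicate number as a block (replicate block), limma called 0 genes after adjustment and 1545 at an unadjusted p under 0.05. The groups share only the numbers 2 and 3, whose libraries' deviations correlated at 0.156 and 0.228. Pairs with unlike numbers ran from -0.417 (control replicate 2 with Hsp47-deleted replicate 3) to 0.382 (control replicate 2 with Hsp47-deleted replicate 1). With 3 libraries per group and run mixed with group, these correlations cannot decide whether an equal number marks a pairing. Depth is unknown, so the 4 untested members, with mean linear values under 1, have no stated detection limit.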
